A study of Mus musculus with 12 samples.

Results

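The embryonic macrophage genes described here are 10 genes that mark macrophages of yolk sac origin or encode their receptors: Csf1r, Cx3cr1, Spi1, Adgre1, Mrc1, C1qa, C1qb, C1qc, F13a1 and Pf4. They were chosen by name, as the rows of the deposited count table that carry these symbols, and all 10 were found among its 41079 genes. RNA was sequenced from 12 whole mouse embryos collected 10.0 to 11.0 days after fertilization from matings of parents heterozygous for Mfsd12, a gene for a membrane protein of lysosomes and melanosomes. The 4 knockout embryos carried a disruption of both copies of Mfsd12, the 4 heterozygous embryos of 1 copy, and the 4 wild-type embryos had both copies intact. The strain, the sex and the form of the disrupted allele are not given in the sources used here. Each embryo was 1 library, and the numbers given to embryos here follow the order of deposition and pair nothing. The title of each embryo begins with a number, 18 for knockout 3, heterozygous 1 and wild-type 1 and 2, and 4 for knockout 2, heterozygous 4 and wild-type 3 and 4. It is 14 for knockout 1 and heterozygous 2, 15 for knockout 4 and 4.1b for heterozygous 3. Its meaning is not stated in the labels.

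The first macrophages of the mouse embryo arise in the blood islands of the yolk sac and spread through the embryo with the circulation and through tissues, where they take up dying cells and seed resident populations such as microglia. Their survival and proliferation depend on signalling through Csf1r, the receptor for the growth factors Csf1 and Il34, and their identity depends on the transcription factor PU.1, encoded by Spi1. A whole-embryo library holds RNA from all tissues, so fewer macrophages and less of a gene's RNA per macrophage cannot be told apart in these data.

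Libraries held 53133084 to 67977990 counted reads. Levels are given as CPM, counts scaled to a common library size after TMM scaling of the library totals, and a gene's differences are log2 fold changes from the quasi-likelihood test of edgeR with p-values adjusted over all 20771 genes tested. Mfsd12 had 3.22, 2.78, 3.57 and 2.31 CPM in knockout embryos 1 to 4, 8.84, 2.58, 6.03 and 5.91 CPM in heterozygous embryos, and 12.7, 16.2, 9.48 and 9.38 CPM in wild-type embryos. The library labelled heterozygous 2 therefore lay within the knockout range and went against its label. Knockout 3 stood apart in 12 markers of yolk sac endoderm, the absorptive outer layer of the yolk sac. They summed to 4990 CPM there, to 738 CPM in heterozygous 1 and to 65.1 to 181 CPM in the other embryos. Macrophage RNA was present: 28 of 29 further macrophage markers passed the filter on low counts, Cd163 being the exception, and their sum was 182 to 420 CPM in knockout, 261 to 414 CPM in heterozygous and 262 to 443 CPM in wild-type embryos. Of 12 neutrophil and mast cell markers 8 passed, among them Mpo, the granule enzyme myeloperoxidase, which averaged 2.46 ± 1.24 CPM in knockout embryos, against 4.39 ± 1.21 CPM in wild-type ones (SD, n = 4 each), while Elane, Ngp, Ltf and Ctsg did not. Of the lymphoid markers 2 passed, and Cd3e, Nkg7 and Il7r did not. All 10 macrophage genes passed it, with 0 to 2473.5 counted reads per library.

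Promoter sequence is shown for 4 of the genes because Spi1 is itself among the 10, and PU.1 recognises purine-rich sites with the letters GAGGAA. RefSeq promoter windows of the build GRCm38.p6, 250 bases before to 50 bases after a start, were matched by symbol for F13a1 (2 starts), Mrc1, Cx3cr1, C1qb, C1qc and Pf4, and not for Csf1r, Adgre1, C1qa and Spi1. The lines give the 250 bases before the start, 5′ to 3′ on the gene's strand, with GAGGAA, or TTCCTC where it lies on the other strand, in capitals.
C1qb, chr4:136886201-136886450, minus strand: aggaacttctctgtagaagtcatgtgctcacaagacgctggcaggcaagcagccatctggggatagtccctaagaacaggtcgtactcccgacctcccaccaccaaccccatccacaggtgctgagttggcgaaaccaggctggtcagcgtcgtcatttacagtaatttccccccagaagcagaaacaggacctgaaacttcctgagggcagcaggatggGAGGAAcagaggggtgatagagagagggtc
C1qc, chr4:136892915-136893164, minus strand: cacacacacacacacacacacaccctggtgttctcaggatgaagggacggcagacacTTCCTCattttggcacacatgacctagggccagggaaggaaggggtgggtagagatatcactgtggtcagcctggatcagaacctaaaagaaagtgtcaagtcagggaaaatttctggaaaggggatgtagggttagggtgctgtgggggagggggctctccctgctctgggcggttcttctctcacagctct
F13a1, chr13:37050245-37050494, minus strand: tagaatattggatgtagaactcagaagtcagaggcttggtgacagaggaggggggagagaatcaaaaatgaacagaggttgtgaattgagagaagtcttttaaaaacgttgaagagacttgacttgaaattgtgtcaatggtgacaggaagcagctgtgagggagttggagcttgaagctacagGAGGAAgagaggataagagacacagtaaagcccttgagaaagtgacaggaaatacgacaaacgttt
Mrc1, chr2:14229164-14229413, plus strand: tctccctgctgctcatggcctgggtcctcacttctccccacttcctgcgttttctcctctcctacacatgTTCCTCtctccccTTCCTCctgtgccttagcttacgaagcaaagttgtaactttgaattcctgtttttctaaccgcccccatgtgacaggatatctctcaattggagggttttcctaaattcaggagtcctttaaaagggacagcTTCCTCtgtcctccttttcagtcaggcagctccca
Over the whole windows, GAGGAA was found on either strand in 6 of 7 windows, those of 5 of the 6 genes with an entry, Cx3cr1 being the one without it. All lines printed above hold it. The windows of Cx3cr1, of Pf4 and of the other F13a1 start, which had it only after the start, are not printed. Among all 32851 promoter windows, 28.3% held it. TGTGGT, the core recognised by Runx1, a factor needed for definitive blood formation, was found in 2 of the 7 windows, those of Cx3cr1 and C1qc, against 16.8% of all windows. A match of these letters describes the sequence only, and the 2 motifs did not overlap each other.

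The receptors Csf1r and Cx3cr1 and the transcription factor Spi1 were lowest in knockout 4. In Csf1r the embryos of title number 18 were the highest 4, while in Cx3cr1 and Spi1 knockout 3, of that number, lay below embryos of number 4. Csf1r had 11.7, 7.21, 21.9 and 3.62 CPM in knockout embryos 1 to 4, 23.8, 14.5, 11.1 and 12.1 CPM in heterozygous embryos, and 22.3, 23.4, 11.6 and 11.3 CPM in wild-type embryos. Its 4 values above 20 CPM were those of title number 18, 1 of them from a knockout, and the ranges of the genotypes overlapped. The estimate for knockout against wild-type was -0.63 ± 0.46 (log2, SE; edgeR adjusted p = 0.707). Cx3cr1, the receptor for the chemokine Cx3cl1 and a marker of macrophages that become microglia, had 5.66, 4.31, 7.91 and 0.398 CPM in knockout embryos, 12.3, 2.62, 6.74 and 6.88 CPM in heterozygous embryos, and 12.8, 11.9, 8.29 and 6.497 CPM in wild-type embryos. After knockout 4, its lowest value was that of the library labelled heterozygous 2. Only knockout 3 reached the wild-type range, and the knockout estimate against wild-type was -1.11 ± 0.63 (edgeR adjusted p = 0.641). Exons of Cx3cr1 overlap those of the antisense gene Gm33858, and since strand was not used in counting, reads of the 2 cannot be told apart.

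Spi1 was the least abundant of the 10 on the CPM scale in most embryos. Its values were 2.25, 1.56, 1.44 and 0.383 CPM in knockout embryos, 2.92, 1.10, 1.64 and 2.22 CPM in heterozygous embryos, and 4.42, 3.22, 1.89 and 1.91 CPM in wild-type embryos. Knockout 1 alone of the knockout embryos lay inside the wild-type range. Knockout 3, which had Csf1r at a level like that of wild-type 1 and 2, did not share their higher Spi1. The estimate for knockout against wild-type was -1.03 ± 0.48 (edgeR adjusted p = 0.602).

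Of the surface proteins, Adgre1 encodes F4/80, the adhesion receptor by which mouse macrophages are usually recognised. It had 2.54, 0.912, 4.72 and 0 CPM in knockout embryos, 7.28, 5.81, 2.43 and 3.66 CPM in heterozygous embryos, and 8.69, 6.43, 2.75 and 3.02 CPM in wild-type embryos. No read was counted in knockout 4, which allows a level of up to 0.0460 CPM (3 counts; counting error only). The other knockout values lay on both sides of the lowest wild-type value, and the estimate against wild-type was -1.35 ± 0.90 (edgeR adjusted p = 0.678). Mrc1, the mannose receptor CD206, which takes up glycoproteins, behaved differently among wild-type embryos. It had 13.4, 4.46, 17.4 and 0.674 CPM in knockout embryos, 18.5, 14.3, 11.3 and 15.8 CPM in heterozygous embryos, and 15.7, 16.04, 19.3 and 11.6 CPM in wild-type embryos. Its highest value was in wild-type 3, of title number 4. Knockout 2 and 4 lay below all 8 of those embryos, and knockout 1 and 3 within their range. The estimate for knockout against wild-type was -0.80 ± 0.61 (edgeR adjusted p = 0.716).

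**Figure D1:**
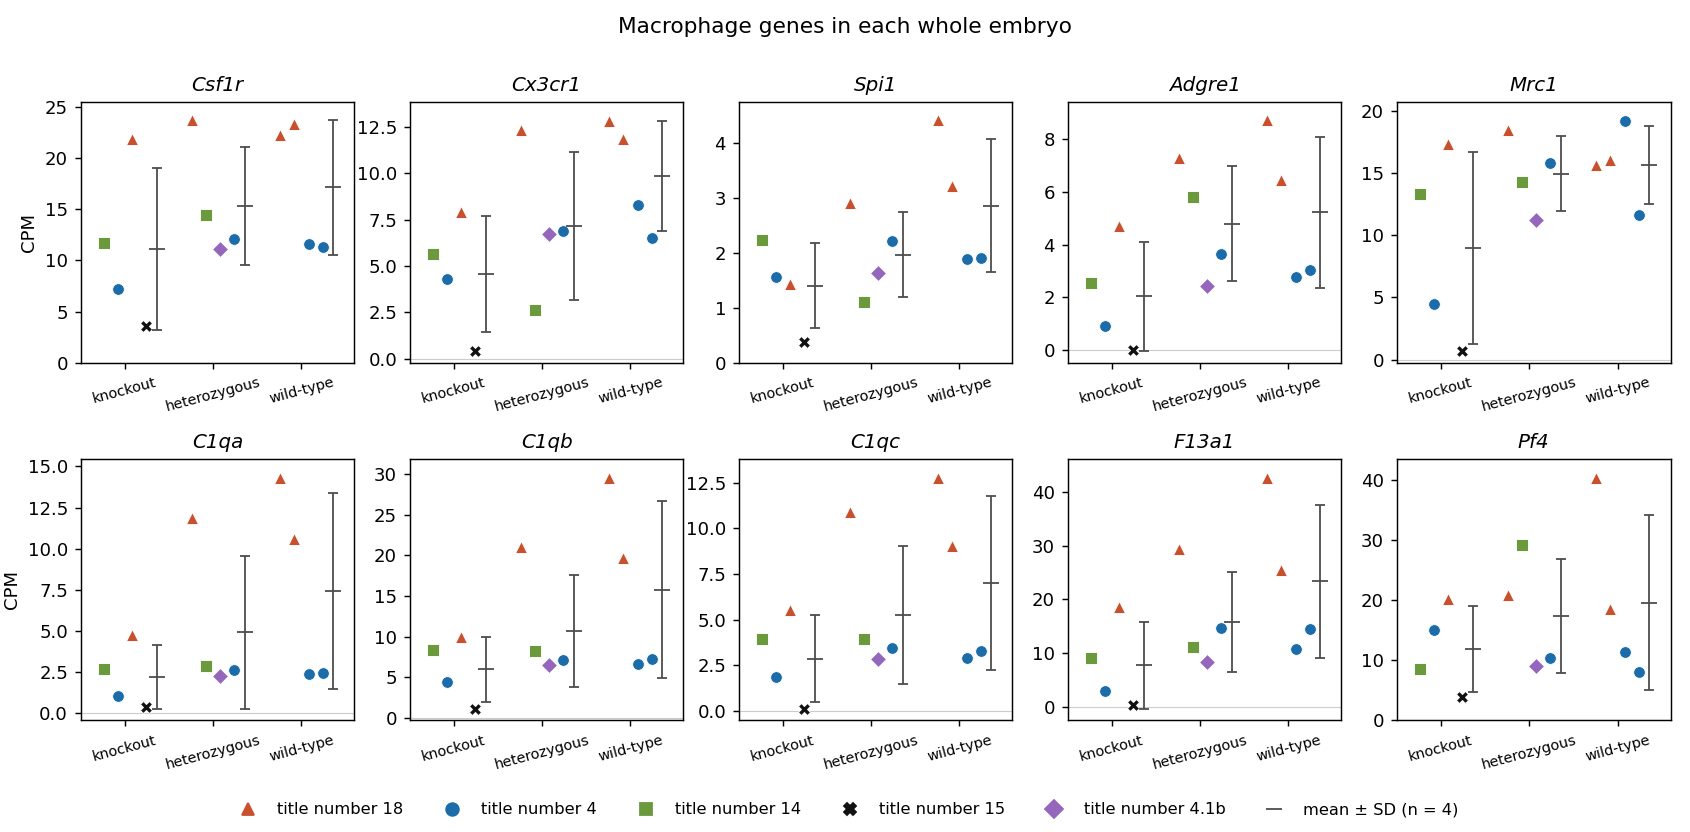
CPM of the 10 macrophage genes (vertical axes, 1 panel per gene) in each knockout, heterozygous and wild-type embryo; symbols give the number at the start of the embryo's title, and bars the mean ± SD of 4 embryos. Knockout 4 (title number 15) is the lowest point in every panel, and the 4 embryos of title number 18 lie above the 4 of title number 4 in 7 panels.

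C1qa, C1qb and C1qc encode the 3 chains of C1q, the recognition part of the classical complement pathway, which macrophages make and which also tags dying cells for uptake. The genes are neighbours on the minus strand of chromosome 4 of GRCm39, C1qb from 136607437 to 136613511, C1qc from 136617115 to 136620225 and C1qa from 136623227 to 136626155. C1qb, the most abundant, had 8.42, 4.43, 9.91 and 1.13 CPM in knockout embryos, 21.0, 8.26, 6.49 and 7.18 CPM in heterozygous embryos, and 29.5, 19.7, 6.68 and 7.31 CPM in wild-type embryos. C1qa had 2.69, 1.06, 4.76 and 0.398 CPM in knockout embryos, 11.9, 2.85, 2.30 and 2.66 CPM in heterozygous embryos, and 14.3, 10.6, 2.40 and 2.47 CPM in wild-type embryos. The values of both genes formed a high set, heterozygous 1 and wild-type 1 and 2, and a low set that held all other heterozygous and wild-type embryos, with knockout 3 between the sets. C1qc had 3.95, 1.87, 5.54 and 0.123 CPM in knockout embryos, 10.9, 3.93, 2.83 and 3.44 CPM in heterozygous embryos, and 12.8, 9.06, 2.92 and 3.28 CPM in wild-type embryos, and divided in the same way. Knockout 1, of title number 14, lay above wild-type 3 and 4 in all 3 genes.

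Knockout estimates of C1q against wild-type were -1.74 ± 0.80 for C1qa, -1.40 ± 0.63 for C1qb and -1.29 ± 0.80 for C1qc (log2, SE). C1qa and C1qb were the 2 members with an unadjusted p under 0.05, 0.0491 and 0.0451 by edgeR, and their adjusted p-values were 0.599 and 0.598. Exact two-sided permutation tests of the 4 knockout against the 4 wild-type embryos gave p = 0.171 for both, where 0.0286 is the smallest such a test can give. The differences had the same sign within both title numbers that held knockout and wild-type embryos: within number 4, knockout 2 differed from the mean of wild-type 3 and 4 by -1.17, -0.65 and -0.72 log2 units in C1qa, C1qb and C1qc, and within number 18, knockout 3 differed from the mean of wild-type 1 and 2 by -1.36, -1.28 and -0.95. These within-number values rest on 1 knockout each and have no test.

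The remaining 2 members are secreted or released proteins. F13a1 encodes the A subunit of coagulation factor XIII, which cross-links fibrin and is made by macrophages and megakaryocytes. It had 9.08, 2.88, 18.5 and 0.368 CPM in knockout embryos, 29.3, 11.1, 8.35 and 14.6 CPM in heterozygous embryos, and 42.6, 25.4, 10.8 and 14.5 CPM in wild-type embryos. Its span was the widest of the members without a zero, and 3 of the 4 knockout embryos lay below every wild-type embryo. The estimate for knockout against wild-type was -1.60 ± 0.81 (edgeR adjusted p = 0.619). Exons of F13a1 overlap those of the antisense genes Gm30489 and Gm30240, whose reads cannot be told apart from its own. Pf4, a platelet chemokine that yolk sac macrophages and megakaryocytes both transcribe, had 8.51, 15.002, 20.2 and 3.95 CPM in knockout embryos, 20.9, 29.2, 9.01 and 10.3 CPM in heterozygous embryos, and 40.3, 18.5, 11.4 and 8.11 CPM in wild-type embryos. Wild-type 1 and the library labelled heterozygous 2 were highest, and the library labelled heterozygous 2 exceeded the wild-type mean in Pf4 and Adgre1 but in no other member. The summed level of 14 megakaryocyte and platelet markers was also highest in these 2 libraries, 175 CPM in each, and its range was 48.9 to 126 CPM in knockout, 67.3 to 175 CPM in heterozygous and 68.0 to 175 CPM in wild-type embryos. Their part in the Pf4 level was not tested. The knockout estimate of Pf4 against wild-type was -0.71 ± 0.56 (edgeR adjusted p = 0.723).

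Per length of transcript, Pf4 was the most abundant of the 10 genes in 12 of 12 embryos and C1qb the next in 12 of 12. On this scale of abundance, TPM, in which counts are divided by gene length and scaled to a common total, Pf4 averaged 53.9 ± 32.6 in knockout, 70.03 ± 32.6 in heterozygous and 74.2 ± 35.2 in wild-type embryos (SD, n = 4 each), and C1qb averaged 12.9 ± 8.86 TPM in knockout, 21.1 ± 13.7 TPM in heterozygous and 28.5 ± 14.1 TPM in wild-type embryos. The growth factor receptor Csf1r averaged 6.80 ± 4.94 TPM in knockout, 8.57 ± 3.25 TPM in heterozygous and 9.40 ± 2.74 TPM in wild-type embryos. Cx3cr1, Spi1 and Adgre1 were the 3 lowest by wild-type mean, at 5.63 ± 1.07, 3.72 ± 0.773 and 3.26 ± 1.15 TPM. Which embryo was highest depended on the scale, since wild-type 1 had the highest value of 8 members in CPM and of 3 in TPM, where heterozygous 1 was highest in 5. Knockout 4 was lowest for all 10 members on both scales.

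Knockout 4 held little RNA of any of the 10 genes. Its summed level was 11.1 CPM, where knockout 1 to 3 had 43.7 to 112 CPM and the other embryos 62.2 to 159 CPM when heterozygous and 70.04 to 203 CPM when wild-type. The median over the 10 genes was 4.83% of the wild-type mean there, and 28.2% in knockout 2, 54.8% in knockout 1 and 79.7% in knockout 3. The genes were not low in equal measure in knockout 4: Csf1r and Pf4 kept the largest shares, while F13a1, C1qc and Adgre1 were nearest to 0. Among further macrophage markers, knockout 4 had 0.307 CPM of Ctss, a lysosomal protease, 0.889 CPM of Tyrobp, a signalling adaptor, and 1.53 CPM of Lyz2, lysozyme, but 9.01 CPM of Cd68, the highest value of the 12 embryos. Trem2, Cd14, Folr2 and Stab1 had 1.23, 0.889, 0.996 and 39.8 CPM in knockout 4, inside the wild-type ranges but not the highest values. Clec4n and Ms4a7, with 0.307 and 0.0920 CPM in knockout 4, also lay inside those ranges. The sum of all the further macrophage markers was still lowest there, 182 CPM. The genes named here outside the set were chosen after their values were seen.

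**Figure D2:**
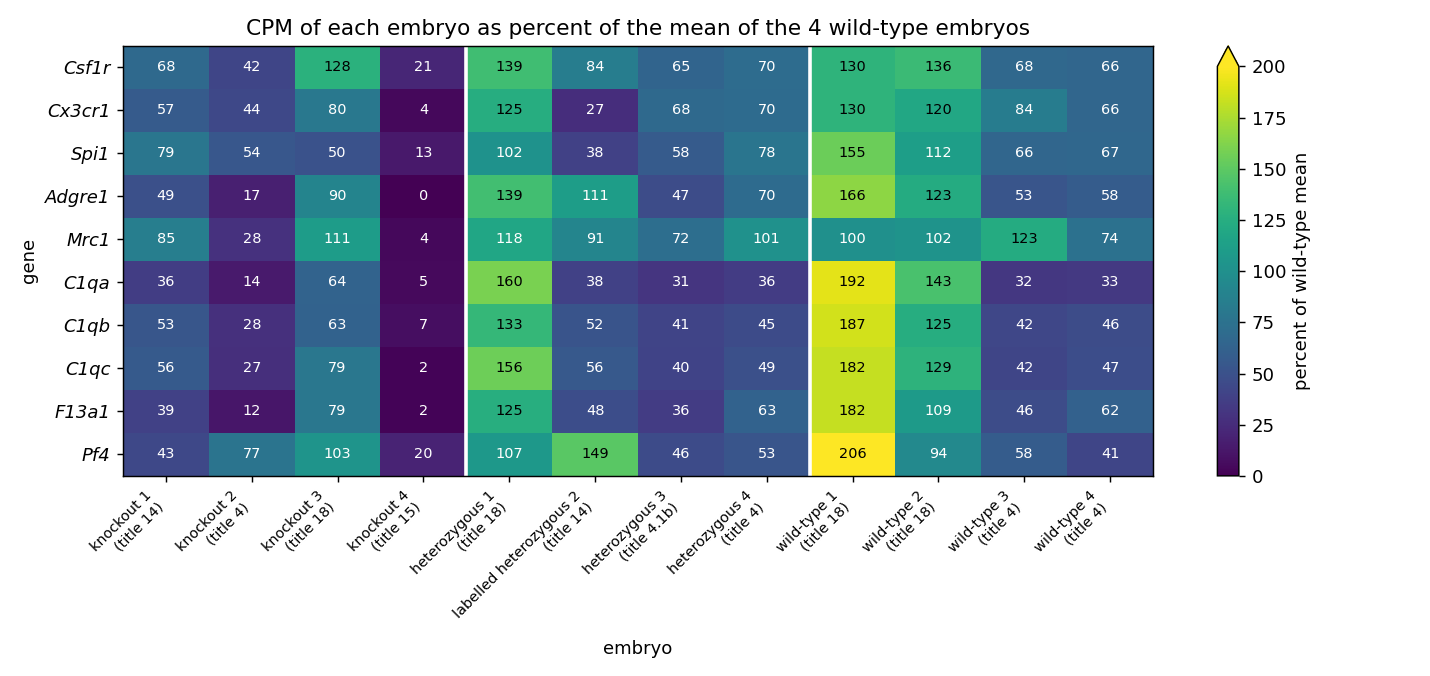
Level of each gene (rows) in each embryo (columns) as percent of the mean CPM of the 4 wild-type embryos, printed in each cell and shown by color. The column of knockout 4 is darkest throughout, with a median of 4.83%, and the C1q rows separate heterozygous 1 and wild-type 1 and 2 from the other heterozygous and wild-type embryos.

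Over the comparison of knockout with wild-type embryos as a whole, no macrophage gene passed the adjusted threshold, although every estimate was lower in knockout embryos. Of the 10 genes, 0 were called by edgeR, by DESeq2 and by limma voom, 2 had an unadjusted edgeR p under 0.05, and their adjusted p lay between 0.598 and 0.723. Over all genes tested edgeR called 0 (0%), with 1730 at an unadjusted p under 0.05, and 4.08% of all genes had such a p with a lower estimate. Lower estimates were found in 10 of 10 macrophage genes and in 48.7% of all genes, and the median log2 fold change was -1.20 over the 10 genes, against 0.011 over all genes. Pearson correlations of log2 CPM between pairs of the 10 genes had a median of 0.90 over 12 embryos and 0.73 without knockout 4. Their signs are therefore not 10 independent observations, here or in the other comparisons. In 0 of the 10 genes did every knockout embryo lie below every wild-type embryo, which 1.82% of all genes showed. Without knockout 4 the median was -0.80 and without knockout 3 it was -1.63, with 10 lower estimates and 0 calls in both. A fit with the title number as a term gave a median of -0.62, to which knockout 4, the only embryo of its number, adds nothing. Limma voom gave a median of -0.78, and both fits had 0 calls. Within title number 4 the median difference of knockout 2 from wild-type was -0.74, with 9 of 10 genes lower and Pf4 0.64 higher. Within title number 18 the median difference of knockout 3 was -0.75, with 9 of 10 lower and Mrc1 0.13 higher.

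Against heterozygous embryos the knockout embryos also had lower estimates in 10 of 10 genes, against 50.1% of all genes, with a median of -0.79, while 0 members and 0 of all genes (0%) were called by edgeR. Unadjusted p-values under 0.05 were found for 0 members and 1537 of all genes. Estimates lay between -1.23 for Adgre1 and -0.47 for Csf1r, and adjusted p-values between 0.741 and 0.820. In 0 members did every knockout embryo lie below every heterozygous one, as 1.93% of all genes did. Leaving out the library labelled heterozygous 2 made the median -0.94, leaving out heterozygous 1 made it -0.26, leaving out knockout 4 made it -0.41, and leaving out knockout 3 made it -1.23.

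Heterozygous against wild-type embryos had lower estimates in 10 of 10 genes, against 51.6% of all genes, with a median of -0.44, values between -0.59 for C1qa and -0.064 for Mrc1, and adjusted p = 1 by edgeR for every member. Over all genes 0 (0%) were called, and 209 had an unadjusted p under 0.05, none of them a member. Leaving out heterozygous 1 made the median -0.83, and leaving out wild-type 1 made it -0.064. Within title number 4, heterozygous 4 differed from the mean of wild-type 3 and 4 by a median of 0.12 log2 units, between -0.09 and 0.34. Within title number 18, heterozygous 1 differed from the mean of wild-type 1 and 2 by a median of -0.05, between -0.39 and 0.22. These differences rest on 1 heterozygous embryo each and have no test, and the libraries labelled heterozygous 2 and 3 have no wild-type embryo of their number. A fit with the title number as a term gave a median of -0.11, to which heterozygous 3, the only embryo of its number, adds nothing. The 3 comparisons of genotypes share embryos, so their estimates are not independent of each other.

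**Figure D3:**
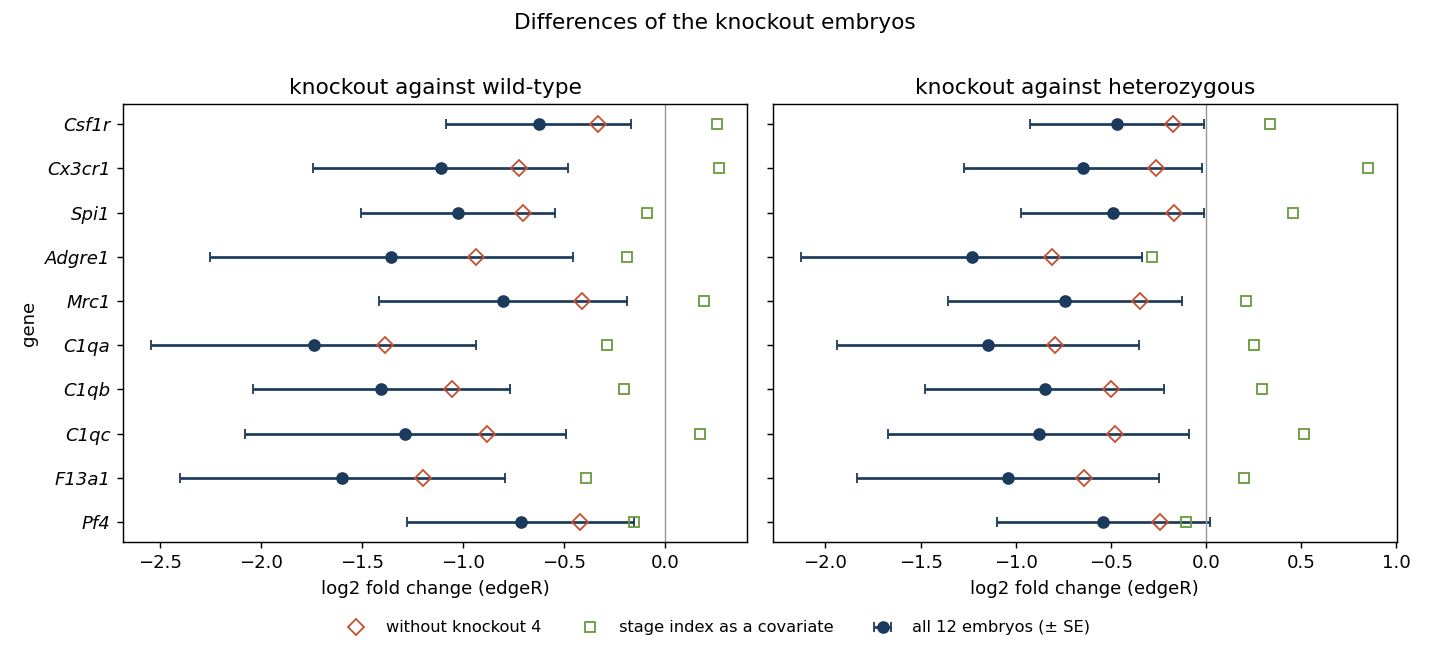
Log2 fold change of each gene for knockout against wild-type (left) and knockout against heterozygous (right) embryos: filled circles with SE for all 12 embryos, open diamonds without knockout 4, open squares with the stage index as a covariate. All filled circles lie below 0, and with the stage index 6 of 10 lie below 0 against wild-type and 2 of 10 against heterozygous embryos.

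The clearest difference among embryos followed the number in their titles. Embryos of title number 18 had higher estimates than those of number 4 in all 10 genes, and 6 of the 10 were called by edgeR in a fit with genotype and title number, where 2.98% of all genes were called higher. This contrast was chosen after the values were seen. Each number is 1 set of embryos, so the SE and p-values of edgeR measure the spread among embryos, not that among such sets. Of its 8 embryos, 1 of each set was knockout, 1 heterozygous and 2 wild-type. Knockout 4 and heterozygous 3 have numbers of their own and add nothing to it.

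C1qa had the largest difference, 2.26 ± 0.25 (log2, SE; edgeR adjusted p = 0.00389), with 4.76 to 14.3 CPM in number 18 and 1.06 to 2.66 CPM in number 4. C1qc differed by 1.72 ± 0.23 (edgeR adjusted p = 0.00686) and C1qb by 1.60 ± 0.23 (edgeR adjusted p = 0.00858). F13a1 had 18.5 to 42.6 CPM in number 18 and 2.88 to 14.6 CPM in number 4, a difference of 1.56 ± 0.31 (edgeR adjusted p = 0.0255). Adgre1 differed by 1.51 ± 0.25 (edgeR adjusted p = 0.0150). Csf1r lay between 21.9 and 23.8 CPM in number 18 and between 7.21 and 12.1 CPM in number 4, a difference of 1.14 ± 0.16 (edgeR adjusted p = 0.00858). In CPM, the narrow Csf1r range in number 18 held knockout, heterozygous and wild-type embryos alike. In TPM, wild-type 1 had 9.01, below the 13.4 of knockout 3, heterozygous 1 and wild-type 2. Leaving out 1 of the 8 embryos ended the call of F13a1 for heterozygous 1 and for each wild-type embryo (edgeR adjusted p from 0.0550 to 0.0962), of Adgre1 for wild-type 3 or 4 (0.0585 and 0.0640) and of C1qb for wild-type 4 (0.0511).

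Pf4, Cx3cr1, Spi1 and Mrc1 were not called by edgeR between the title numbers, with 1.13 ± 0.39, 0.80 ± 0.28, 0.60 ± 0.34 and 0.50 ± 0.32 and edgeR adjusted p-values of 0.109, 0.111, 0.296 and 0.353. DESeq2 called 8 of the 10, Cx3cr1 and Pf4 included, and limma voom 9, Mrc1 being the exception. Over all 20771 genes tested, DESeq2 called 2690 and limma voom 7543, where edgeR called 964. Every embryo of number 18 lay above every embryo of number 4 in 7 members, the 6 called and Pf4, as in 10.1% of all genes. The same 7 did so in TPM. The size within a genotype varied by gene: C1qa differed by 2.13, 2.14 and 2.32 log2 units within knockout, heterozygous and wild-type embryos, while Mrc1 differed by 1.95, 0.23 and 0.08, so that its estimate rested on the knockout pair. For Spi1 the differences were -0.12 within knockout, 0.39 within heterozygous and 0.98 within wild-type embryos. Whether these differences vary with genotype was not tested.

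**Figure D4:**
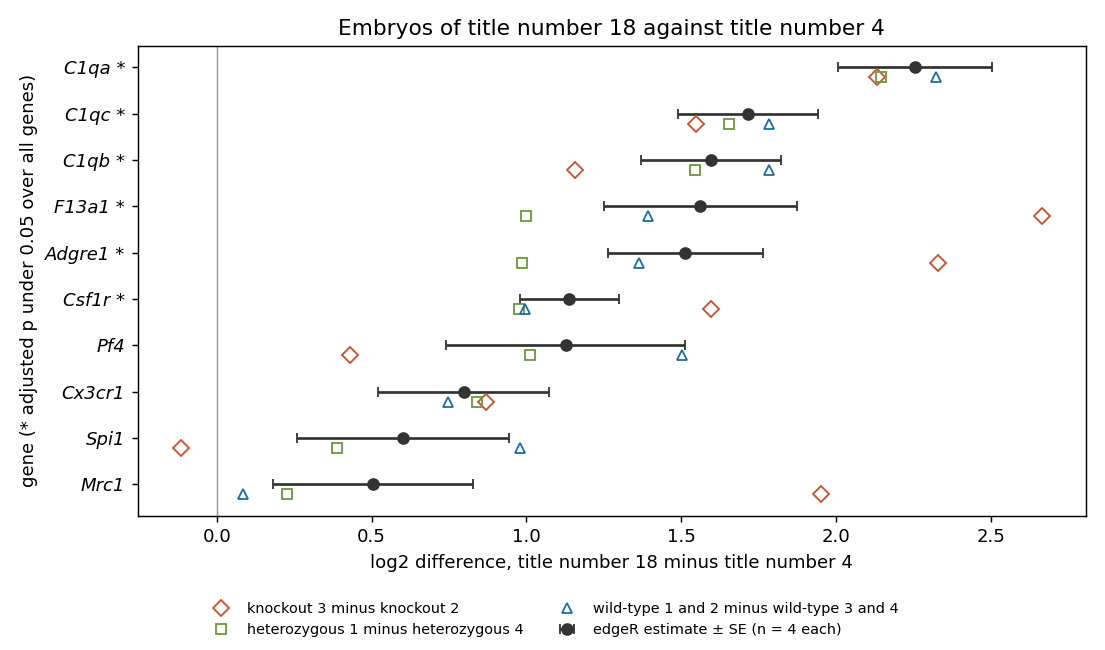
Log2 difference of embryos with title number 18 from those with number 4 for each gene: filled circles with SE are edgeR estimates, open symbols the differences within knockout, heterozygous and wild-type embryos. The 3 C1q genes have the largest estimates, 1.60 to 2.26, and the open symbols of Mrc1 range from 0.08 to 1.95.

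Markers of other cell types differed between the title numbers as well. Of 12 yolk sac endoderm markers 7 were called higher in number 18, such as Apoa1, Afp and Ttr, genes for secreted carrier proteins. Their median log2 difference was 2.83, where that of the 10 macrophage genes was 1.33, and their sums were 155 to 4990 CPM in number 18 and 65.1 to 181 CPM in number 4. Without knockout 3, edgeR called 7 of 11 higher and 1 lower, with a median of 1.62, and called the same 6 macrophage genes, whose median was 1.25. Heterozygous 1, also of number 18, stayed in that fit and had a sum of 738 CPM of the yolk sac endoderm markers. The neutrophil and mast cell genes S100a8, S100a9 and Cpa3 were called higher, 3 of 8 tested, as were 2 of 14 megakaryocyte and platelet genes, Gp1bb and Ppbp. Also called higher were 1 of 9 coagulation factors, Fga, and 1 of 12 myeloid transcription factors, Cebpa. Of 12 endothelial genes 1 was called lower, Kdr, a receptor for vascular endothelial growth factor. Of the 10 stage genes that are higher earlier, 3 were called lower, Lin28a, Lin28b and Dnmt3b, and 9 had lower estimates, with a median of -0.81. Of the 10 that are higher later, 1 was called higher, Stmn2, though not without knockout 3. Of these, 6 had higher and 4 lower estimates, with a median of 0.32. Over all 20771 genes tested, 618 were called higher and 346 lower. None of the 12 erythroid, 7 complement, 3 ligand and 2 lymphoid genes tested was called. The part of these cell types in the difference of the macrophage genes was not tested.

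An index of developmental stage moved with both the genotype and the title number. Per the labels, staging was refined computationally with eMOSS, but a stage of each embryo was not used here. A stage index was therefore computed from genes known to be higher later, such as neuronal ones, minus genes known to be higher earlier, such as Lin28a. It was -0.81, -1.63, 0.68 and -3.79 in knockout embryos 1 to 4, 1.25, -0.31, 0.85 and 0.88 in heterozygous embryos, and 0.70, 1.84, 0.64 and -0.31 in wild-type embryos. Knockout 4 had the lowest index as well as the lowest macrophage genes, and knockout 2 was second-lowest in the index and in the mean centred log2 level of the 10 genes, -0.91, where knockout 4 had -3.45. Of the embryos with an index above 0, knockout 3, heterozygous 1 and wild-type 1 and 2 had means of 0.55, 1.20, 1.51 and 1.08, and heterozygous 3 and 4 and wild-type 3 had -0.20, 0.13 and 0.03.

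When the index entered the fit of genotype means, which had no title-number term, the estimates of knockout against wild-type shrank to a median of -0.12. Csf1r at 0.26, Cx3cr1 at 0.26, Mrc1 at 0.19 and C1qc at 0.17 lay on the other side of 0. The largest remaining difference was in F13a1, -0.39. Another fit held genotype, title number and the index, and its estimates between title numbers were 2.21 for C1qa, 1.78 for C1qc and 1.75 for C1qb. Pf4 was at 1.89, where it had 1.13 without the index, Cx3cr1 at 0.47, where it had 0.80, and Mrc1 at -0.23, where it had 0.50. None of the 10 was called, with edgeR adjusted p-values from 0.0552 to 0.705. That fit spends 1 more degree of freedom and called 1 gene of all tested, where the fit without the index called 964. With the number and the index in 1 fit, genotype, number and stage rest on few embryos each, and knockout 4, the only embryo of its title number, adds nothing to the genotype differences. In the fit without the number, the part of stage in the genotype differences cannot be told apart from that of genotype in knockout 4.

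**Figure D5:**
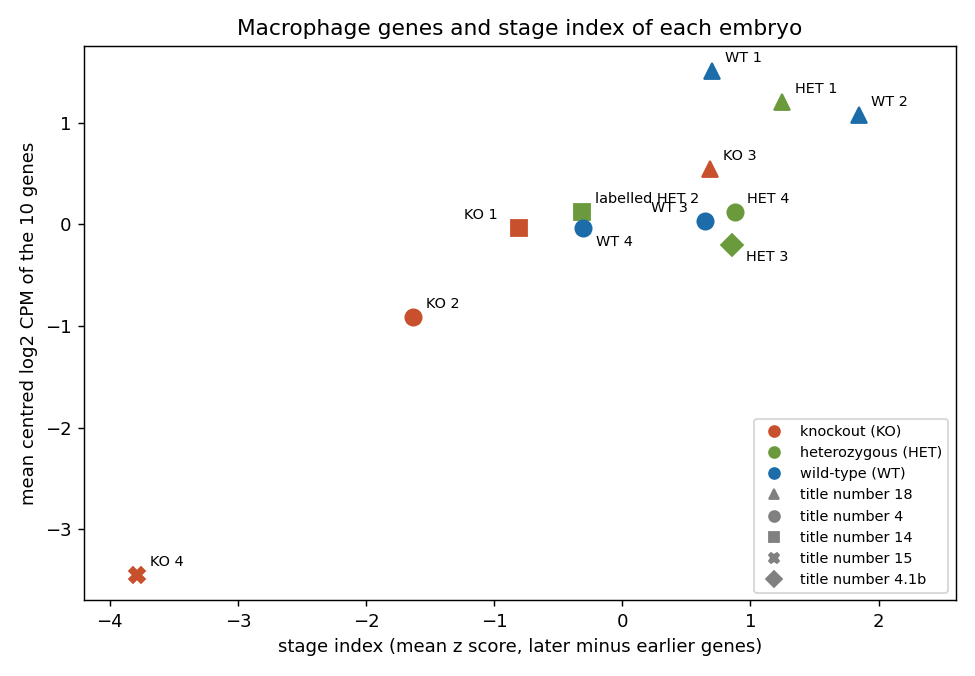
Mean centred log2 CPM of the 10 genes (vertical) against the stage index (horizontal) in each embryo, colored by genotype, with symbols for the number in the title. Knockout 4 lies apart at -3.79 and -3.45, and the 4 embryos of title number 18 have the 4 highest macrophage levels.

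Of 28 further macrophage and microglia markers tested in knockout against wild-type embryos, 0 were called, 25 had lower estimates and the median was -0.71. Without knockout 4, 21 were lower with a median of -0.46, and without knockout 3, 26 with a median of -1.09. Their most abundant gene, Dab2, an endocytic adaptor also found in yolk sac endoderm, averaged 91.5 ± 37.6 CPM in knockout embryos, against 107 ± 28.4 CPM in wild-type embryos (SD, n = 4 each). The smallest p belonged to Aif1, the microglial protein Iba1, with an estimate of -1.81 ± 0.64 (edgeR adjusted p = 0.542), and to Laptm5, a lysosomal protein of blood cells, with -0.85 ± 0.31 (edgeR adjusted p = 0.552). Between title number 18 and 4, 9 of the 28 were called higher and 0 lower: Lyve1, Fcgr1, Fcgr3, Fcer1g, Tyrobp, Trem2, Lyz2, Ctss and Dab2.

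Of the 3 ligands of the receptors, 3 had higher estimates in knockout embryos and 0 were called. Csf1 averaged 12.9 ± 7.73 CPM in knockout embryos, against 10.4 ± 0.620 CPM in wild-type embryos, an estimate of 0.30 ± 0.35 (edgeR adjusted p = 0.799). Knockout 3 had 24.5 CPM of it and the other knockout embryos 8.55 to 9.94 CPM, against 9.62 to 11.1 CPM in wild-type embryos, and without knockout 3 the estimate was -0.19. Cx3cl1 averaged 5.07 ± 1.47 CPM in knockout embryos, against 4.105 ± 1.20 CPM in wild-type embryos, an estimate of 0.31 ± 0.28 (edgeR adjusted p = 0.760). Among 12 other transcription factors of myeloid cells 9 had lower estimates, the median was -0.16 and 0 were called; the median was -0.27 without knockout 3 and -0.10 without knockout 4. Ikzf1, the lymphoid and myeloid factor Ikaros, had an estimate of -0.82 ± 0.39 (edgeR adjusted p = 0.606), and Zeb2, a repressor needed for macrophage identity, had -0.07 ± 0.20 (edgeR adjusted p = 0.930).

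The estimates of genes that act with C1q or factor XIII depended on knockout 3. Of 7 complement partners tested, 4 had higher estimates in knockout embryos and 0 were called, with a median of 0.72, or 0.077 without knockout 3. C3, which liver and endoderm make, ranged over 0.763 to 43.3 CPM in knockout embryos, against 0.243 to 2.12 CPM in wild-type embryos, and its highest value was that of knockout 3. Of 9 coagulation factors 9 had higher estimates and 0 were called, with a median of 0.50, but without knockout 3 only 3 of 9 were higher and the median was -0.12. Fga, the fibrinogen alpha chain, had 0.219, 0.431, 116 and 0.0307 CPM in knockout embryos 1 to 4, against 0.174 to 2.16 CPM in wild-type embryos. Of the yolk sac endoderm markers, 12 of 12 had higher estimates in knockout embryos and 0 were called, with a median of 3.76 and sums of 86.1 to 4990 CPM in knockout and 65.1 to 176 CPM in wild-type embryos. Without knockout 3, 4 of 11 were higher and the median was -0.11.

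Markers of other blood and vessel cells give the setting. All 12 erythroid genes had lower estimates in knockout embryos, with a median of -1.43, 11 unadjusted p-values under 0.05 and 0 calls, and their sum was 4637 to 16809 CPM in knockout embryos, against 15810 to 74035 CPM in wild-type embryos. Of 14 megakaryocyte and platelet genes 9 had lower estimates, with a median of -0.24, where 12 were lower without knockout 3 and 7 without knockout 4. Of 8 neutrophil and mast cell genes 6 had lower estimates, with a median of -0.79. Of 12 endothelial genes 6 were lower, or 3 without knockout 4, with sums of 354 to 440 CPM in knockout embryos, against 330 to 407 CPM in wild-type embryos. No gene of these lists, nor the 2 lymphoid genes tested, was called by edgeR between genotypes. The 10 genes that are higher later had 10 lower estimates and a median of -0.98, and the 10 that are higher earlier had 10 higher estimates and a median of 1.22, or 0.61 without knockout 4, again with 0 calls.

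Ratios between members show how far the 10 genes kept step. Taken per length, C1qc was 0.42 to 0.56 of C1qb in 11 embryos and 0.11 in knockout 4, where C1qc had 8 counted reads. C1qa was 0.49 to 0.58 of C1qb in the embryos of title number 18 and 0.24 to 0.38 in those of number 4. The summed C1q level was 1.61 to 4.52 times that of Csf1r in knockout, 3.66 to 6.51 times in heterozygous and 3.65 to 8.94 times in wild-type embryos. Within title number 18 that ratio was 3.26 in knockout 3, 6.51 in heterozygous 1 and 8.94 and 5.95 in wild-type 1 and 2, and within number 4 it was 3.59 in knockout 2, 3.88 in heterozygous 4 and 3.65 and 4.08 in wild-type 3 and 4. Mrc1 was 0.50 to 0.58 of Csf1r in number 18 and 0.45 to 1.21 in number 4. These ratios are descriptions of single embryos and were not tested.

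Outside the 10 genes, the 8 with the most similar pattern among 15657 with a mean of at least 1 CPM were Fcrl2, Ly86, Mfap4, Cd86, Ccdc3, Sh3gl3, S1pr3 and Oxct1. Likeness was the Pearson correlation, over 12 embryos, of log2 CPM with the mean centred log2 level of the 10 genes, and it is given as a description of embryos that share their library scaling. It was 0.992 for Fcrl2, an Fc receptor-like protein, and 0.992 for Ly86, a partner of a Toll-like receptor homologue on myeloid and B cells. Cd86, a co-stimulatory protein of antigen-presenting cells, had 0.978. Mfap4, an extracellular matrix protein, had 0.982, with 67.3 ± 28.1 CPM in knockout, 94.5 ± 21.7 CPM in heterozygous and 109 ± 33.5 CPM in wild-type embryos (SD, n = 4 each). Oxct1, the mitochondrial enzyme of ketone use, had 0.973. Without wild-type 1 and knockout 4, the 2 embryos farthest from the median level, the values were 0.968 for Fcrl2, 0.958 for Ly86, 0.977 for Mfap4, 0.879 for Cd86 and 0.870 for Oxct1.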

How the data were processed

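RNA was sequenced from 12 whole embryos, 4 per genotype, and the authors deposited 1 table of estimated counts (expected counts, not normalized) per gene. The table is the output of featureCounts 2.0.6 on a RefSeq annotation of GRCm39, per the file headers. Multi-mapping reads, and reads shared by overlapping genes, were split into fractions, and strand was ignored. DRAGEN is named without a role in the submitters' processing notes. Per the labels' protocols, 325 ng of RNA per embryo went into a strand-marking mRNA kit.

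The counts were rounded, filtered with filterByExpr and scaled by TMM. Genotype means were fitted to all 12 embryos by edgeR 4.0.16 (quasi-likelihood, robust; R 4.3.3). Tests were two-sided, with Benjamini-Hochberg adjustment over all genes tested and a threshold of 0.05. Log2 CPM used a prior count of 2, and TPM used the deposited gene lengths. Permutation tests were made with scipy 1.17.1. The edgeR step was tested on simulated data.

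The members, the 13 other lists and the alternatives were chosen with earlier results of these data known. Named genes were Mfsd12, the members, examples from each list taken by highest mean CPM or smallest p, and the 8 genes of most similar pattern; genes outside this rule are marked as such or are counted members of a list. Alternatives were DESeq2 1.42.0, limma 3.58.1 (voom with sample weights), other scalings and filters, fits of the compared genotypes alone, covariates for title number, Xist and a stage index (mean z score of later minus earlier genes), and leaving out embryos. The title-number contrast, its alternatives and the fits of the other lists without knockout 3 or 4 were added after seeing the data. Each embryo is 1 animal, and floors cover counting error only.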

Additional observations from a re-analysis of the deposited data

Results flagged for a closer look

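Heterozygous 1 stood far from the other 3 libraries labelled heterozygous in the 3 C1q genes. It had 11.9 CPM of C1qa, where the others had 2.30 to 2.85 CPM. Its C1qb level was 21.0 CPM, against 6.49 to 8.26 CPM, and its C1qc level was 10.9 CPM, against 2.83 to 3.93 CPM. The gap to the nearest library took up 0.943, 0.878 and 0.864 of the group's range, each above the critical value of Dixon's test for 4 samples. Of 30 groups of 4 embryos examined, 3 were marked in this way, and chance marks about 1 in 20. The 3 marks fell on 1 embryo in 3 neighbouring genes that vary together, so they are not independent and cannot be set against that rate. Heterozygous 1 is the only heterozygous embryo of title number 18, and its C1q levels lay between those of wild-type 1 and 2, which carry the same number.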

How the results depend on the processing

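Of 862 member values under alternatives, 805 kept their direction and their side of the threshold, 31 turned direction, 16 lost a call and 10 gained one; the cause was not tested. No member was called between genotypes under the alternatives run. For knockout against wild-type, DESeq2 called 122 of all genes, the fit with the title number as a term called 2, and fits without 1 embryo called 0 to 1, while 19 were called without both knockout 3 and the library labelled heterozygous 2. For knockout against heterozygous, DESeq2 called 65, the fit without those 2 libraries 33, and fits without 1 embryo 0 to 1. For heterozygous against wild-type, DESeq2 called 4. With the stage index, 6 members had lower log2 estimates against wild-type, and Csf1r was at 0.26, Mrc1 at 0.19, Cx3cr1 at 0.26 and C1qc at 0.17. Against heterozygous embryos 2 had lower estimates, with F13a1 at 0.20, Csf1r at 0.34, Mrc1 at 0.21, Cx3cr1 at 0.86, C1qa at 0.25, C1qb at 0.29, C1qc at 0.52 and Spi1 at 0.46. For heterozygous against wild-type, Adgre1, Mrc1 and Pf4 were at 0.097, 0.046 and 0.061 with limma voom. The title number as a term left 6 members lower and put Csf1r at 0.050, Adgre1 at 0.15, Mrc1 at 0.0079 and Pf4 at 0.14. The Xist covariate put Pf4 at 0.20 and the stage index put Adgre1 at 0.093. Without 1 embryo, Csf1r ranged from -0.46 to 0.031, Adgre1 from -0.41 to 0.24, Mrc1 from -0.19 to 0.050, C1qc from -1.05 to 0.053 and Pf4 from -0.54 to 0.45. Between title numbers 18 and 4, genes called numbered 2690 with DESeq2, 7543 with limma voom, 619 without TMM, 2185 without a filter, 321 with Xist, 1 with the stage index, 1688 in those 2 numbers alone, 2168 there without a genotype term, and 87 to 1841 without 1 embryo. Members called were 8 with DESeq2, 9 with limma voom, 7 without a filter, 8 in those 2 numbers alone, 5 with Xist, 0 with the stage index, where Mrc1 was at -0.23, and 3 to 7 without 1 embryo, the lowest without wild-type 4, where F13a1, Adgre1 and C1qb were not called.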
